A study of Rattus norvegicus with 20 samples.

Results

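The genes described here encode Z-disc and stretch-sensing proteins of striated muscle: Ldb3, Xirp1, Xirp2, Ky, Csrp3, Fhl1, Fhl2, Ankrd1, Ankrd2 and Rcan1. They were taken as all probe sets (groups of probes for 1 transcript) to which the platform annotation gives 1 of these 10 symbols and no other. In all, 9 of the 10 genes were measured, by 19 of the 31042 probe sets tested. Xirp2 had no probe set under this rule. Within a gene the probe sets are numbered by mean brightness over the 20 arrays, with probe set 1 the brightest, and a gene named without a number stands for probe set 1.

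The Z-disc anchors the actin filaments of neighbouring sarcomeres through alpha-actinin, and titin runs from it along the sarcomere as an elastic filament. Proteins bound to the Z-disc or to titin's spring segments are thought to sense stretch, and several of them also move to the nucleus and act on transcription. In heart muscle such genes are studied in pressure overload, hypertrophy and inherited cardiomyopathy.

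The samples came from the right ventricle of male Sprague Dawley rats of about 350 g. Rats with chronic pulmonary embolism (PE) had received polystyrene microspheres of 25 micron, at 2000000 per 100 g of body weight in 0.01% Tween-20, into the right jugular vein. Vehicle rats had received 0.01% Tween-20 without microspheres, and all hearts were taken at 6 weeks. Outflow tract (base) and apex of the right ventricle were taken separately, which gave PE outflow, vehicle outflow, PE apex and vehicle apex groups of 5 arrays each. The replicate numbers name biological replicates, and arrays of outflow and apex with the same number and treatment behaved as samples of the same rat. The field on growth describes vehicle treatment for all 20 samples, so the groups follow the titles, the source names and the treatment field.

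The 9 measured cardiomyocyte markers had signals of 3938 or more on all 20 arrays, so the defining genes of heart muscle were present throughout. The arrays carry control probes at either end of the GAPDH transcript, and the 3' signal over the 5' signal goes up where RNA or its labelled copies are short; by this ratio PE outflow replicate 2 had 6.12, replicate 4 had 2.20 and replicate 5 had 2.34. PE outflow replicates 1 and 3 had 1.71 and 1.70, the PE apex arrays had 1.47 to 1.67, and the 10 vehicle arrays had 1.38 to 1.83. Values without PE outflow replicates 2, 4 and 5 therefore stand beside a number of results below. Of 5 load markers 2 rose, 1 fell and 2 did not pass in PE outflow, with a median log2 fold change of -0.20, and 1 rose and 4 did not pass in PE apex, with a median of 0.22. The mean log2 level of these 5 markers, Nppa among them, lay above the vehicle mean on every PE outflow array, by at least 0.354. On every PE apex array it lay above by at least 0.399. The mean includes the large rise of Nppa, and the direction of each other marker is not given here. The counts, the median and the mean are therefore not a measure of load. Over all probe sets 34.5% passed in the outflow tract and 0.0129% in the apex. Nppa, which rose in both regions and encodes atrial natriuretic peptide, was 23.9-fold higher in PE outflow than in vehicle outflow (log2 4.58 ± 0.48, SE, limma adjusted p = 7.52e-07) and 13.8-fold higher in PE apex than in vehicle apex (log2 3.78 ± 0.48, limma adjusted p = 0.00591).

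The RefSeq promoter table (build GRCr8) held 8 of the 10 genes. The 250 bases before the first listed start site are shown for Ldb3, Fhl2, Xirp1 and Fhl1, because these promoters hold a match to a muscle or load-responsive element and their genes moved in different directions and degrees in the outflow tract. Capitals mark a match, on either strand, to the CArG box, which serum response factor binds, or to the MEF2 site, which the MEF2 factors bind. All run 5′ to 3′ on the gene's strand.
Ldb3 (chr16:9924680-9924929, minus strand): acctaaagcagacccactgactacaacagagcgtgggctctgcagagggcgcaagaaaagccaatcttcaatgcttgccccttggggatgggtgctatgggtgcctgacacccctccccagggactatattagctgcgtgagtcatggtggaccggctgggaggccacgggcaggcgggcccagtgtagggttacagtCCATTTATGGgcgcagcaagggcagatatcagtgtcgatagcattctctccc
Fhl2 (chr9:52954541-52954790, minus strand): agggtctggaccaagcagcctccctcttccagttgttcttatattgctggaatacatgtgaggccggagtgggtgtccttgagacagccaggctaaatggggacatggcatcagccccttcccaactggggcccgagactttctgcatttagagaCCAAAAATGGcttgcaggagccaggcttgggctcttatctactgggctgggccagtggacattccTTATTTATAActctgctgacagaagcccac
Xirp1 (chr8:128635012-128635261, minus strand): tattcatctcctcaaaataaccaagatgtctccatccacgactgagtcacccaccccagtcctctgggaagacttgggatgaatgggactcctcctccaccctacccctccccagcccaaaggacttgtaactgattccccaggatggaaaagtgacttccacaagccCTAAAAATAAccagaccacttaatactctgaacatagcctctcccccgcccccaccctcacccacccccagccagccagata
Fhl1 (chrX:139638246-139638495, plus strand): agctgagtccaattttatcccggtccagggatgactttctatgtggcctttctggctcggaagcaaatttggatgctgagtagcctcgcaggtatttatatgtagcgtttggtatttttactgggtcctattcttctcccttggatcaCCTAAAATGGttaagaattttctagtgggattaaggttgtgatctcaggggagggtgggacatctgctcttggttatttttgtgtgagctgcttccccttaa

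The CArG box matched in 3 of the 8 promoters (Ldb3, Fhl2 and Fhl1), against 1.5% of 33465 promoters of this length in the table. The MEF2 site matched in 3 of 8 (Xirp1, Xirp2 and Fhl2), against 2.96% of all. Counted from the start site, the CArG match of Fhl2 lies at -95 to -86 and its MEF2 match at -30 to -21, where it overlaps a TATA box. The TATA box sequence (TATAAA, either strand, at any position) was found in 5 of 8 promoters against 12.9% of all. Its matches lie at -27 to -22 in Fhl2, -40 to -35 in Ankrd2 and -60 to -53 in Rcan1. In Fhl1 the match lies at -156 to -151 and in Ky at -216 to -211. The MCAT element CATTCC was found in 1 of 8 against 12.1%, and the E-box CANNTG in 4 of 8 against 65.5%. The members count 1 promoter per gene, that of the first listed start site, whereas the shares of all count every listed start site. The motifs were chosen after the sequences had been seen, so these shares describe the promoters and were not tested.

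The first comparison asked how these genes differed in the outflow tract after PE. Of the 19 probe sets, 12 fell, 1 rose and 6 did not pass limma's test at an adjusted p under 0.05. Over all 31042 probe sets, 34.5% were called, 14.9% lower and 19.6% higher. The 12 that fell belong to Ldb3 (5 probe sets), Fhl2 (2), Ky (2), Xirp1, Csrp3 and Ankrd1, and the 1 that rose belongs to Fhl1; relative to the cardiomyocyte markers described below, the Ankrd1 and Csrp3 values turn to 0.07 and 0.01. The median log2 fold change of the 19 was -1.15, against 0.05 over all probe sets. For all 12 that fell, each PE outflow array lay below each vehicle outflow array, and groups lay apart in that direction for 9.98% of all probe sets.

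**Figure D1:**
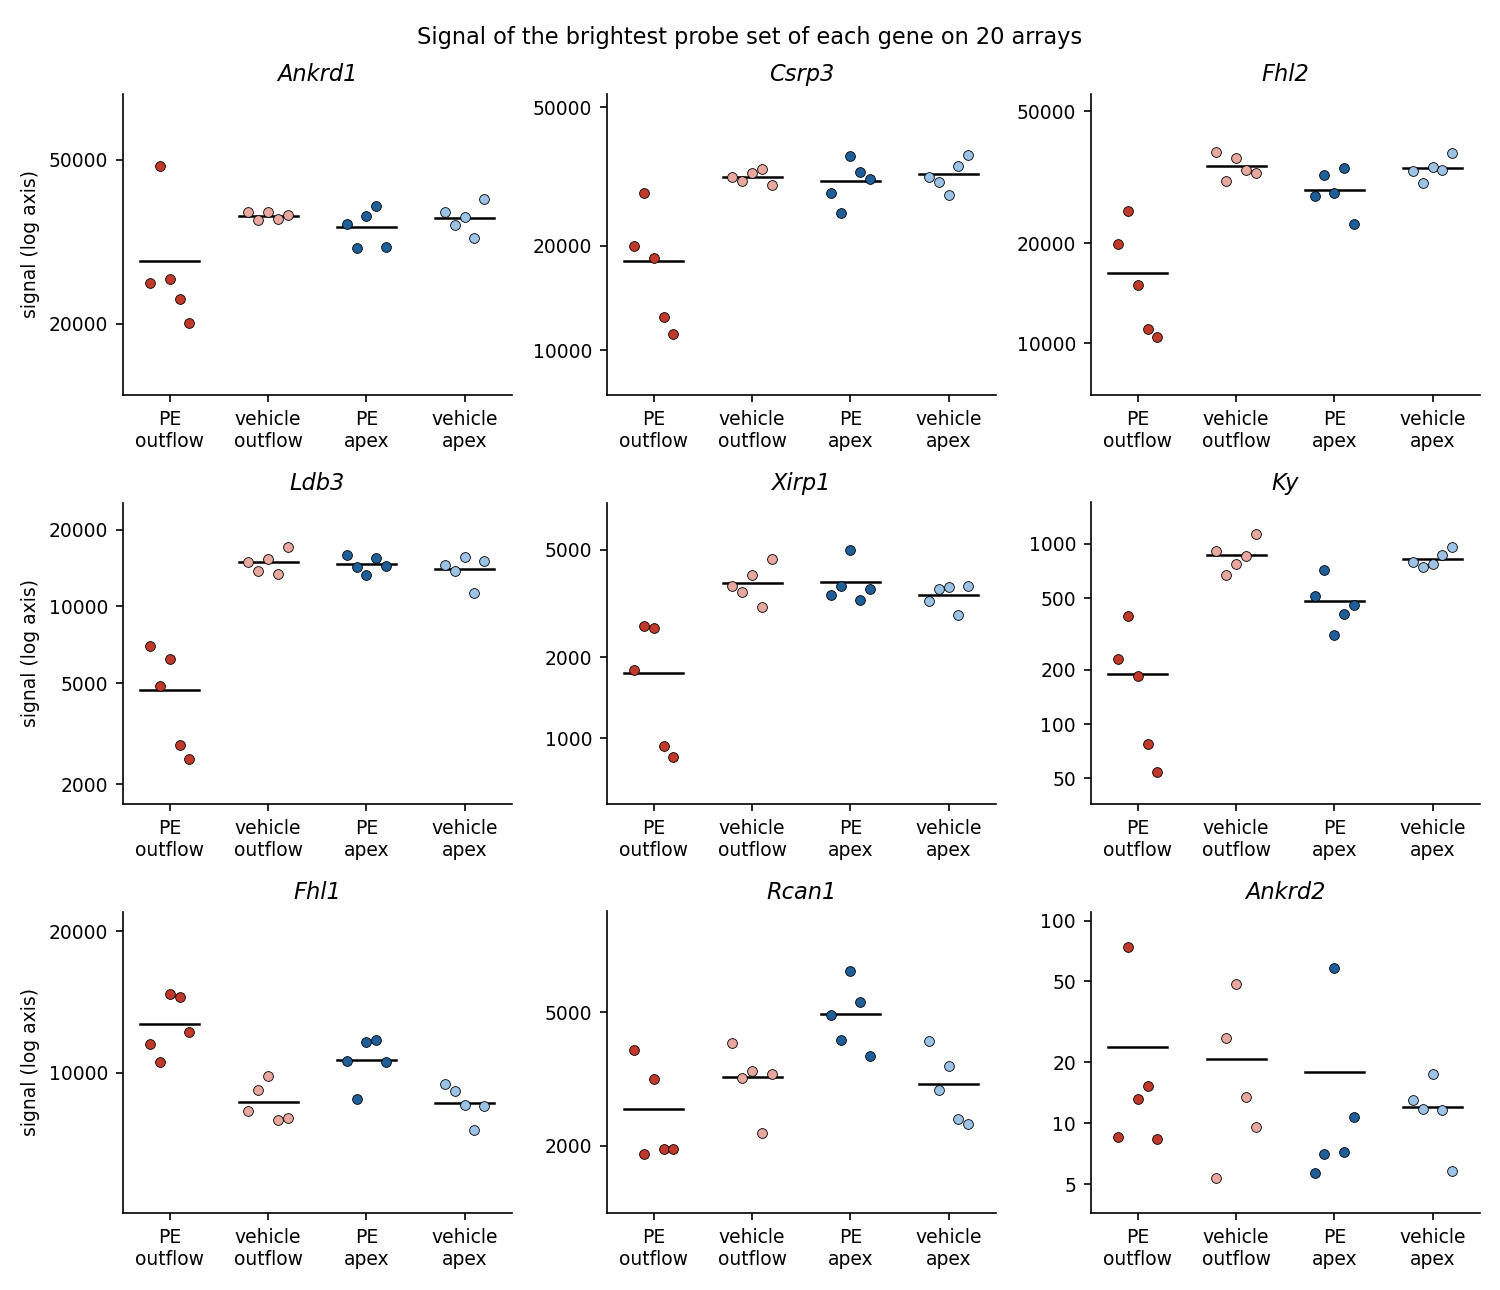
Signal (log axis) of the brightest probe set of each of the 9 measured genes on every array; points are arrays in replicate order, bars are group means of 5 arrays. The PE outflow points of Csrp3, Fhl2, Ldb3, Xirp1 and Ky lie below all vehicle outflow points, those of Fhl1 lie above them, and Ankrd2 is dim in every group.

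Ldb3, also called Cypher or ZASP, is a PDZ and LIM domain protein that binds alpha-actinin at the Z-disc. Its probe set 1 (1372737_at) had signals of 6982, 4889, 6233, 2869 and 2510 in PE outflow, against 14955, 13777, 15318, 13400 and 17064 in vehicle outflow. The groups lay far apart, and PE outflow replicates 4 and 5 were the lowest. The fall was 3.41-fold (log2 -1.77 ± 0.22, limma adjusted p = 4.09e-06). The error of a log2 fold change is throughout the SE of the model, which shares 1 spread per probe set over the 4 groups. The log2 SD of this probe set was 0.66 in PE outflow and 0.14 in vehicle outflow. Group means were 4696 ± 1984 in PE outflow and 14903 ± 1447 in vehicle outflow (SD).

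The next 4 Ldb3 probe sets fell 2.54-fold, 3.35-fold, 3.74-fold and 8.0-fold (limma adjusted p up to 0.000478), and probe set 5 fell by 1.37 on the log2 scale without PE outflow replicates 2, 4 and 5. With all arrays probe set 5 (1397273_at) had the largest fall of the 19, a rank it lost to Ky without those 3 arrays, with 185, 52.5, 283, 11.9 and 11.6 in PE outflow against 798, 760, 530, 507 and 561 in vehicle outflow. On 3 of its 5 PE outflow arrays the signal was thus near the low end of the scale, where adding 16 before the logarithm holds the fold change down. Probe set 6 was dim, at 10.4 to 74.0 in PE outflow and 47.0 to 106 in vehicle outflow, and its log2 fold change of -0.78 ± 0.30 did not pass (limma adjusted p = 0.0511). Leaving out any of 6 of the 20 arrays brought it under the threshold, at an adjusted p of 0.0184 to 0.0497. Ldb3 is spliced into several transcripts, and the annotation used here does not say which of them each probe set reports.

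**Figure D2:**
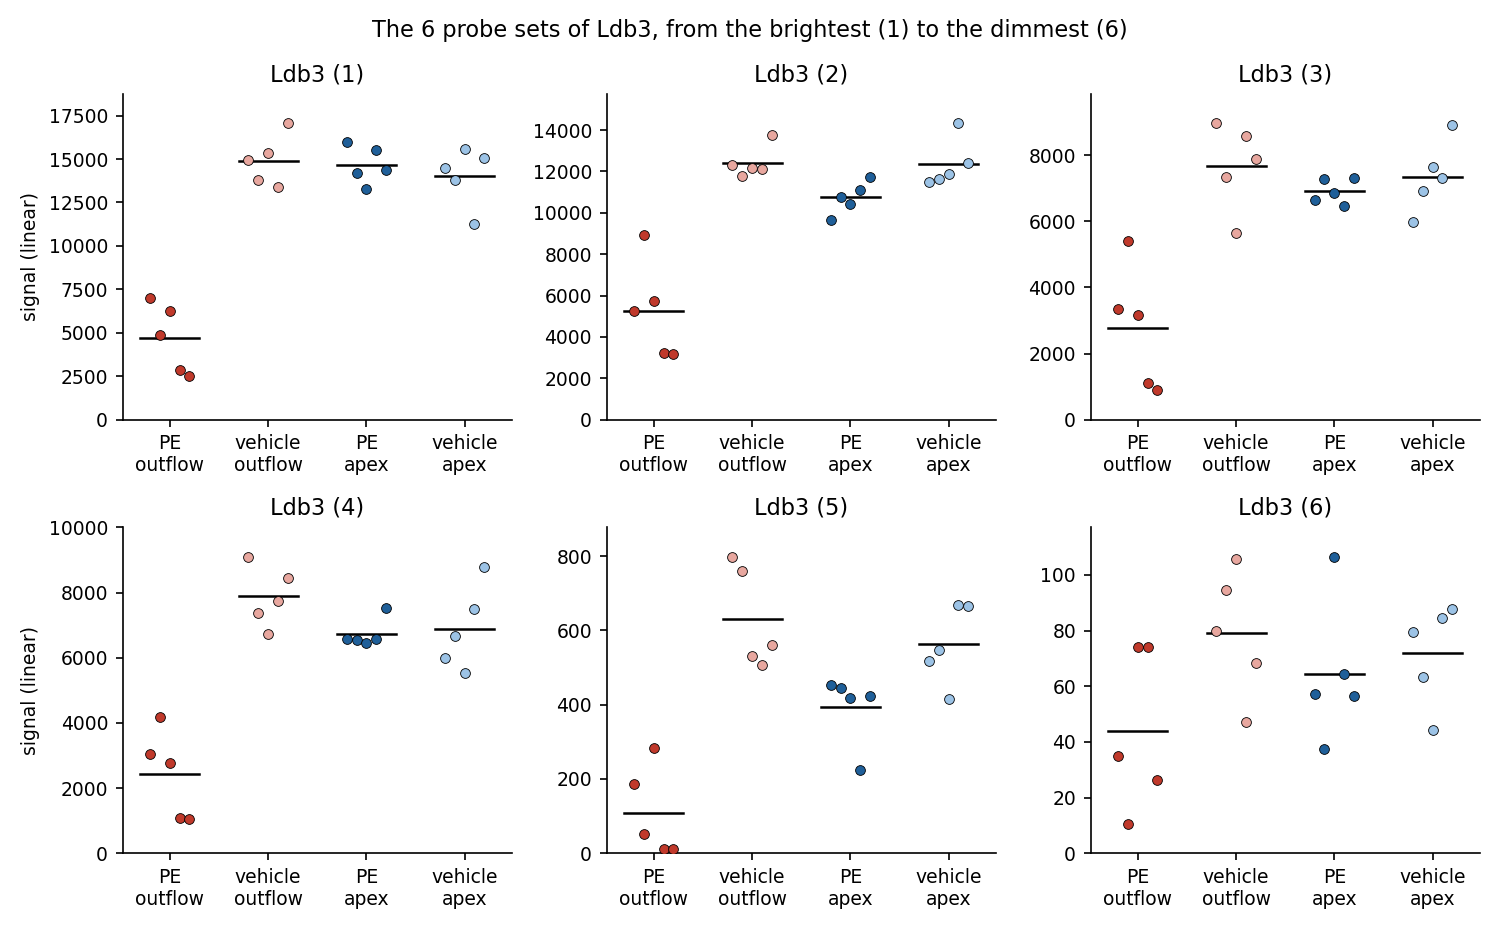
Signal (linear axis) of the 6 Ldb3 probe sets on every array, from the brightest to the dimmest; points are arrays in replicate order, bars are means of 5 arrays. In probe sets 1 to 5 all PE outflow points lie below all vehicle outflow points, while the PE apex and vehicle apex points overlap.

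Xirp1 encodes Xin, an actin-binding repeat protein of the intercalated disc and of myotendinous junctions. Its probe set (1389119_at) had 1785, 2611, 2561, 938 and 855 in PE outflow, against 3654, 3489, 4040, 3070 and 4619 in vehicle outflow. The groups did not overlap, and PE outflow replicates 4 and 5 were the lowest. It fell 2.36-fold (log2 -1.24 ± 0.26, limma adjusted p = 0.000757).

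Ky encodes the kyphoscoliosis peptidase, a transglutaminase-like muscle protein; mice without it develop kyphoscoliosis and a skeletal muscle disease. Probe set 1 (1389694_at) had 230, 400.3, 184, 78.0 and 54.0 in PE outflow, against 917, 675, 769, 859 and 1133 in vehicle outflow. All PE outflow arrays lay below all vehicle arrays, with replicate 2 the highest and replicate 5 the lowest. Ky fell 5.19-fold by probe set 1 (log2 -2.38 ± 0.35, limma adjusted p = 2.49e-05) and 3.59-fold by probe set 2 (log2 -1.84 ± 0.22, limma adjusted p = 3.19e-06), the largest fall among the 9 genes led by their brightest probe set.

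Csrp3, the muscle LIM protein, sits at the Z-disc with telethonin and has been proposed as part of a stretch sensor; mice without it develop dilated cardiomyopathy. Its probe set (1398243_at) had 19976, 28424, 18408, 12436 and 11140 in PE outflow, against 31514, 30752, 32376, 33272 and 29855 in vehicle outflow. The groups lay apart, with replicate 2 just under the lowest vehicle array and replicates 4 and 5 the lowest. Csrp3 fell 1.85-fold (log2 -0.88 ± 0.19, limma adjusted p = 0.00109), and relative to the cardiomyocyte markers described below its value was 0.01 ± 0.16.

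Fhl2 and Fhl1 encode LIM-only proteins that bind the N2B spring of titin; Fhl2 also docks metabolic enzymes there. Fhl2 probe set 1 (1371951_at) had 19863, 24976, 14990, 11026 and 10454 in PE outflow, against 37736, 30911, 36123, 33340 and 32516 in vehicle outflow. All PE outflow arrays lay below all vehicle arrays. It fell 2.21-fold (log2 -1.15 ± 0.19, limma adjusted p = 9e-05), and probe set 2 fell 3.52-fold (log2 -1.82 ± 0.19, limma adjusted p = 8.69e-07).

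Fhl1 was the exception in direction. Probe set 1 (1372107_at) had 11518, 10555, 14668, 14493 and 12230 in PE outflow, against 8315, 9187, 9833, 7944 and 8025 in vehicle outflow. Every PE outflow array lay above every vehicle array, and groups lay apart in that direction for 13.4% of all probe sets. Fhl1 rose 1.46-fold (log2 0.54 ± 0.12, limma adjusted p = 0.00135).

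The other Fhl1 probe sets did not pass. Probe set 2 (1390049_at) had 1977, 312, 1816, 1632 and 1137 in PE outflow, against 1076, 1176, 1237, 991 and 1139 in vehicle outflow. Replicate 2, the array with the highest GAPDH ratio, was the lowest of the 10, and 3 PE outflow arrays lay above all vehicle arrays. Its log2 fold change was 0.05 ± 0.35 (limma adjusted p = 0.935). Without PE outflow replicates 2, 4 and 5 it was 0.75 (limma adjusted p = 0.0313), and with the GAPDH ratio as a covariate 1.06 (limma adjusted p = 0.000483). Probe set 3 was dim, at 40.2 to 94.4 in PE outflow and 14.1 to 67.7 in vehicle outflow, with a log2 fold change of 0.57 ± 0.29 (limma adjusted p = 0.149).

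Ankrd1, the cardiac ankyrin repeat protein, binds the N2A segment of titin and is a widely used marker of load on heart muscle. Probe set 1 (1367664_at) had 25115, 48337, 25760, 22999 and 20145 in PE outflow, against 37413, 35673, 37380, 35930 and 36740 in vehicle outflow. Replicate 2 lay above all vehicle arrays and the other 4 PE outflow arrays lay below all of them. The log2 fold change of -0.44 ± 0.17 did not pass (limma adjusted p = 0.0531). It passed with a negative sign in 8 of 32 other settings, among them -0.65 without replicate 2 (limma adjusted p = 6.77e-05), -0.53 without replicates 2, 4 and 5 (0.00381), -0.57 after centring on the median (0.00597), -0.56 with array weights (0.00102) and -0.81 with the GAPDH ratio as a covariate (0.00035). Under quantile normalization it was -0.05 (limma adjusted p = 0.791), and relative to the cardiomyocyte markers it turned to 0.46 (limma adjusted p = 0.0122).

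Probe set 2 of Ankrd1 (1367665_at) had 25230, 16351, 24442, 18034 and 16631 in PE outflow, against 36068, 33723, 35507, 34764 and 34573 in vehicle outflow. Here replicate 2 was the lowest, and no PE outflow array reached the vehicle range. It fell 1.77-fold (log2 -0.82 ± 0.13, limma adjusted p = 4.66e-05), under quantile normalization it missed the threshold (log2 -0.37, limma adjusted p = 0.0534), without replicates 2, 4 and 5 its value was -0.49, and relative to the cardiomyocyte markers its sign turned (log2 0.07). Fhl2 showed the same exchange on this array: replicate 2 was the highest PE outflow array by probe set 1 and, at 5182 against 5870 to 13105 on the others, the lowest by probe set 2. The part of the GAPDH ratio of 6.12 in these differences between probe sets was not tested.

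Ankrd2, a relative of Ankrd1 best known from slow skeletal muscle, was dim. It had 8.52, 73.9, 13.1, 15.3 and 8.38 in PE outflow, against 5.38, 26.3, 48.7, 13.4 and 9.56 in vehicle outflow, and the groups overlapped. At this level its log2 fold change of 0.03 ± 0.38 could not resolve a change, with a 95% interval of -0.76 to 0.82.

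Rcan1 inhibits the phosphatase calcineurin, and a transcript of it is induced by calcineurin and NFAT and used as a readout of that pathway. The annotation used here does not say whether the Rcan1 probe set reports that transcript. The Rcan1 probe set (1388686_at) had 3858, 1887, 3163, 1957 and 1952 in PE outflow, against 4048, 3189, 3335, 2184 and 3265 in vehicle outflow. PE outflow replicates 2, 4 and 5 lay below all vehicle arrays and replicates 1 and 3 within them. The log2 fold change of -0.36 ± 0.23 did not pass (limma adjusted p = 0.26), and without replicates 2, 4 and 5 it was 0.15 (limma adjusted p = 0.753).

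The spread within PE outflow was wide. For 18 of the 19 probe sets the SD of the log2 signal was larger there than in any other group, and for 16 also without replicate 2. The median SD of the 19 was 0.62 in PE outflow, against 0.17 in vehicle outflow, 0.22 in PE apex and 0.18 in vehicle apex. In 9 of the 12 probe sets that fell, replicates 4 and 5 were the lowest PE outflow arrays, and in 8 of the 12 replicate 2 was the highest. Replicates 2, 4 and 5 are the arrays with GAPDH ratios of 6.12, 2.20 and 2.34. The part of RNA quality in this spread was not tested. The share of all probe sets with their largest SD in PE outflow is not given here, so the spread is not shown to be particular to these genes.

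Markers of cell types moved with these results. Beside the counts that follow, 14.9% of all probe sets were called lower in PE outflow and 19.6% higher. Of 9 measured cardiomyocyte markers (Myh6, Tnnt2, Tnni3, Myl2, Myl3, Pln, Ryr2, Mybpc3 and Ttn), 8 fell in PE outflow, with a median log2 fold change of -0.87. Their summed signal was 141901 to 393570 in PE outflow and 320062 to 391657 in vehicle outflow, and none was at 0. Of 8 fibroblast markers 7 rose, with a summed signal of 164412 to 189720 in PE outflow against 66585 to 97909 in vehicle outflow. Of 5 smooth muscle markers 4 rose and 1 fell, of 6 macrophage markers 5 rose, of 8 skeletal muscle markers 3 rose and 1 fell, and of 4 adipocyte markers 3 rose and 1 fell. On all vehicle outflow arrays 7 of the skeletal muscle markers and 2 of the adipocyte markers (Plin1 and Cidec) had signals under 100. Of 4 measured endothelial markers 2 rose and 1 fell, and of 3 measured atrial muscle markers 1 rose (Myl4, log2 3.07 ± 0.65, limma adjusted p = 0.000913). The part of these cell types in the results on the members was not tested. In such tissue samples fewer muscle cells and less RNA per muscle cell cannot be told apart.

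By array, the mean log2 level of the cardiomyocyte markers stood relative to the vehicle outflow mean at -0.82, 0.04, -0.87, -1.35 and -1.47 in PE outflow replicates 1 to 5. The mean over the 5 genes whose brightest probe set fell (Ldb3, Xirp1, Ky, Csrp3 and Fhl2) stood at -1.08, -0.76, -1.18, -2.10 and -2.30 on the same arrays. Both were lowest on replicates 4 and 5 and highest on replicate 2. The 5 genes were chosen by their fall on these arrays, so their mean is a description.

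The fit was therefore repeated on levels relative to the mean of the 9 cardiomyocyte markers of the same array, a setting chosen after the data had been seen. It moves the median over all probe sets to 0.94, so a value under 0.94 there is low among all probe sets. In that fit 8 of the 19 probe sets were called lower and 4 higher, while 2.12% of all probe sets were called lower and 69.0% higher. Ldb3 probe sets 1 to 5 still fell, by 0.88 for probe set 1 (limma adjusted p = 0.00152), as did Ky, by 1.48 and 0.95, and Fhl2 probe set 2, by 0.92. Xirp1 at -0.35 and Fhl2 probe set 1 at -0.25 no longer passed. Fhl1 rose by 1.44, Ankrd1 probe set 1 by 0.46 and the dim Fhl1 and Ankrd2 probe sets by 1.47 and 0.92.

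**Figure D3:**
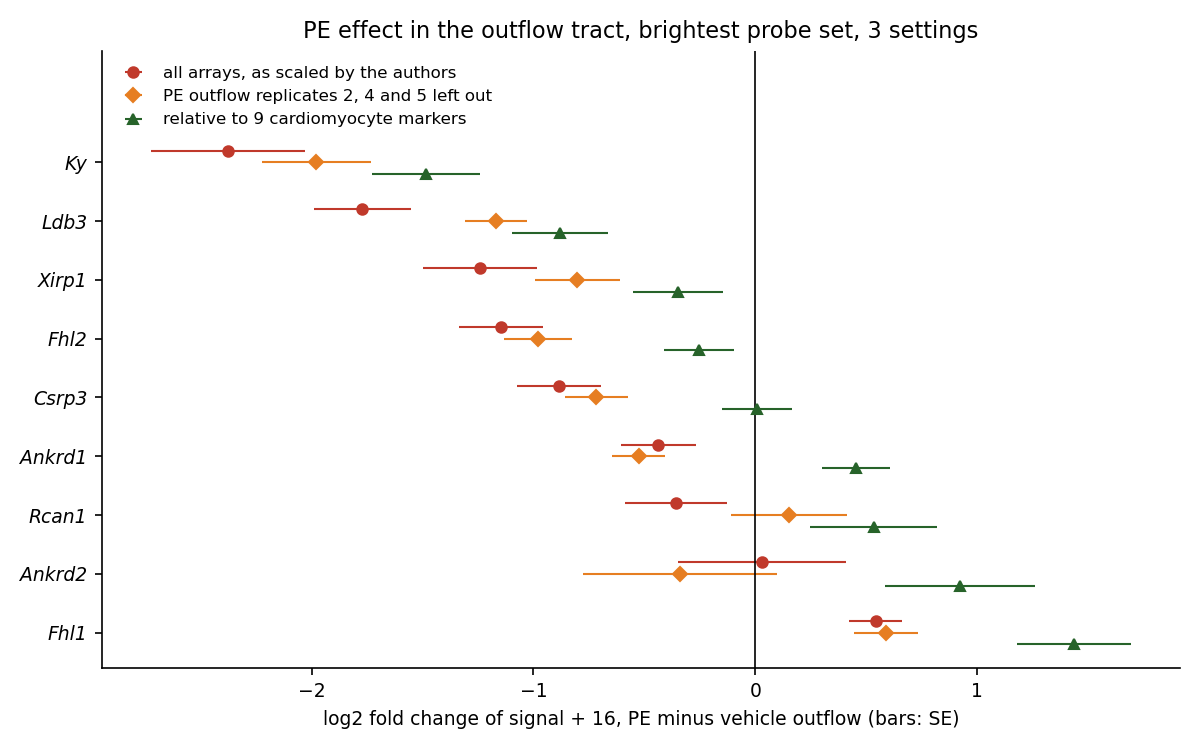
Log2 fold change of the signal plus 16, PE outflow minus vehicle outflow, for the brightest probe set of each gene, with all arrays, without PE outflow replicates 2, 4 and 5, and relative to 9 cardiomyocyte markers; bars are SE. Ky, Ldb3, Xirp1 and Fhl2 lie left of 0 and Fhl1 right of 0 in all 3 settings, while Csrp3 and Ankrd1 reach 0.01 and 0.46 relative to the markers.

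Without PE outflow replicates 2, 4 and 5, 13 of the 19 probe sets were called lower and 2 higher, against 10.8% and 12.7% of all probe sets. Ldb3 probe set 1 then fell by 1.17, Ky by 1.98, Xirp1 by 0.80, Fhl2 by 0.98 and Csrp3 by 0.72 on the log2 scale, with 2 PE outflow arrays left against 5 vehicle arrays. With the GAPDH ratio as a covariate the counts of members were the same, against 15.2% of all probe sets called lower and 17.1% higher.

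The second comparison asked the same of the apex. None of the 19 probe sets passed limma's test, while 0.0129% of all probe sets did, and 3 of the 19 had an unadjusted p under 0.05, which 7.47% of all probe sets had. The 3 were the brightest probe sets of Rcan1, Fhl1 and Ky. Log2 fold changes of the 19 ran between -0.81 and 0.70, with a median of -0.07.

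Rcan1 had 4914, 4115, 6648, 5355 and 3700 in PE apex, against 4109, 2932, 3444, 2401 and 2327 in vehicle apex. Of the PE apex arrays 4 lay above all vehicle arrays, replicate 2 by a narrow margin, and replicate 5 lay within them. Its log2 fold change was 0.70 ± 0.23 (limma adjusted p = 0.428). Its levels in PE apex were the highest of the 4 groups, at a mean of 4946 ± 1152 against 3043 ± 747 in vehicle apex (SD).

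Ky had 515, 721, 313, 409 and 456 in PE apex, against 796, 742, 778, 871 and 960 in vehicle apex. All PE apex arrays lay below all vehicle apex arrays, which held for 1.5% of all probe sets in that direction, and the log2 fold change was -0.81 ± 0.35 (limma adjusted p = 0.609). Probe set 2 of Ky was at -0.36 ± 0.22, with 3 of 5 PE apex arrays below all vehicle arrays.

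Fhl1 had 10612, 8782, 11642, 11753 and 10556 in PE apex, against 9459, 9171, 8528, 7555 and 8497 in vehicle apex, and 4 of 5 PE apex arrays lay above all vehicle arrays. Its log2 fold change of 0.30 ± 0.12 did not pass (limma adjusted p = 0.574). By their brightest probe sets the structural members stood close to the vehicle apex level. Ldb3 was at 0.07 ± 0.22, Xirp1 at 0.15 ± 0.26, Csrp3 at -0.07 ± 0.19 and Fhl2 at -0.23 ± 0.19 on the log2 scale. Ldb3 probe sets 2 to 6 were at -0.20, -0.08, -0.02, -0.52 and -0.15, and none passed. For Ldb3 probe set 2, 4 of 5 PE apex arrays lay below all vehicle apex arrays. For both Fhl2 probe sets 3 of 5 did, with probe set 2 at -0.25 ± 0.19. For Ldb3 the model's 95% interval of the log2 fold change ran between -0.39 and 0.52, so the model could not resolve a change within it. The width comes from the spread shared by the 4 groups. The log2 SD of Ldb3 was 0.66 in PE outflow, against 0.11 in PE apex and 0.18 in vehicle apex. No interval from the apex arrays alone is given here.

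**Figure D4:**
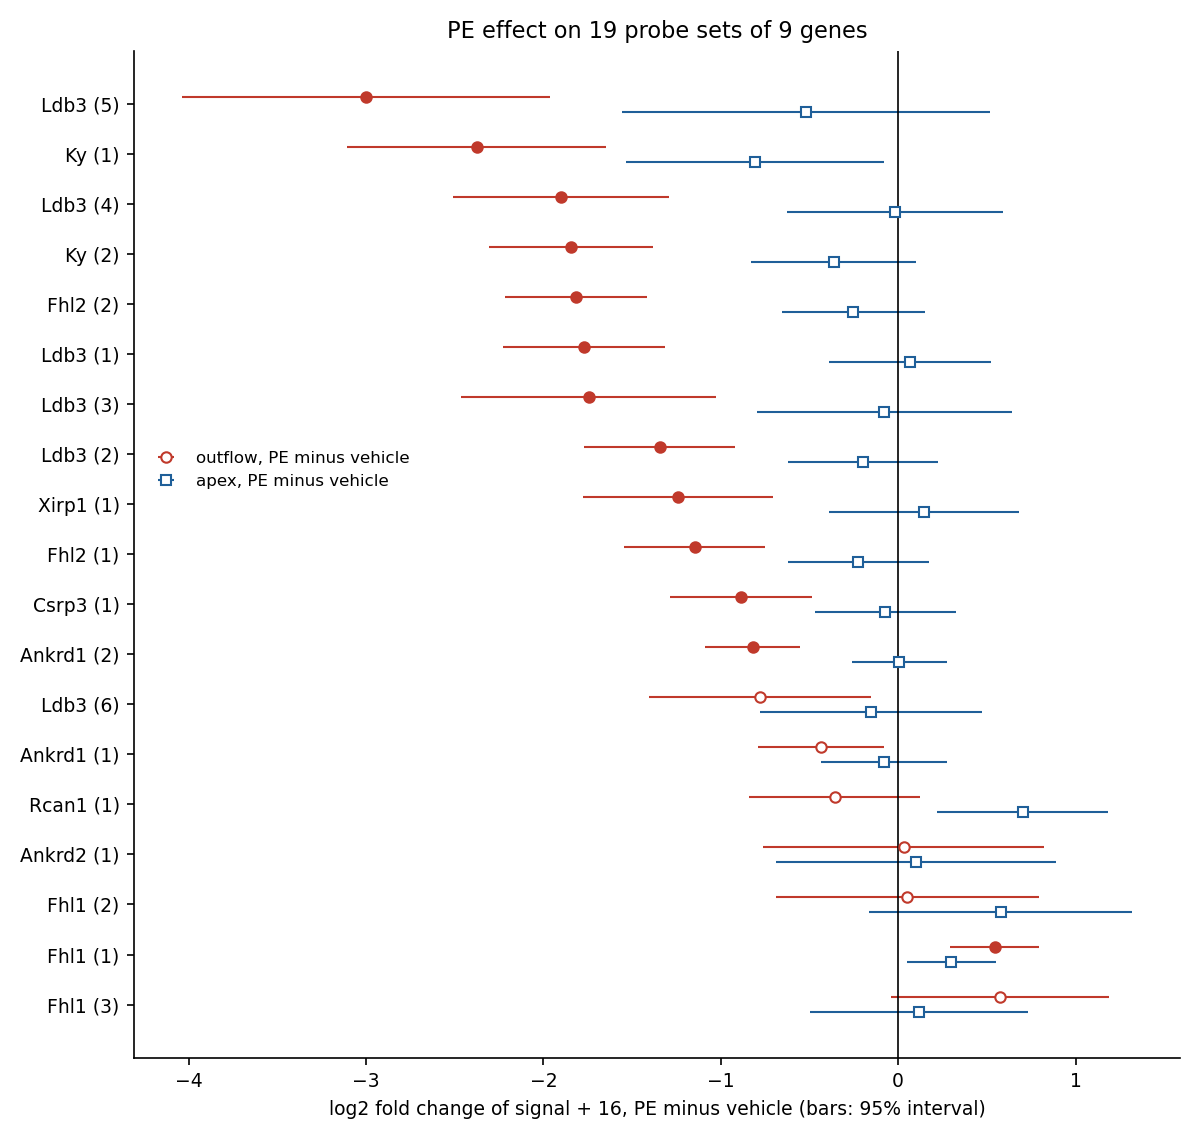
Log2 fold change of the signal plus 16, PE minus vehicle, for the 19 probe sets in the outflow tract (circles) and the apex (squares); bars are 95% intervals, filled symbols passed limma at an adjusted p under 0.05, and the number after each gene is the rank of the probe set by brightness. Of the outflow values 13 are filled and of the apex values 0.

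Whether the PE effect differed between the regions was tested directly, as the PE effect in the outflow tract minus that in the apex. Of the 19 probe sets 13 had a lower effect in the outflow tract and 0 a higher one, while over all probe sets 17.9% were called, 8.09% lower and 9.84% higher. The difference was -1.84 ± 0.31 for Ldb3 probe set 1 (limma adjusted p = 0.000802), -1.39 ± 0.36 for Xirp1 (limma adjusted p = 0.0121), -1.57 ± 0.49 for Ky probe set 1 (limma adjusted p = 0.0321) and -0.92 ± 0.27 for Fhl2 probe set 1 (limma adjusted p = 0.0223).

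For Rcan1 the difference was -1.06 ± 0.32 (limma adjusted p = 0.0284), made of a positive apex value and a negative outflow value, neither of which passed by itself. It missed the threshold when any of 6 of the 20 arrays was left out (adjusted p 0.0513 to 0.0574), without PE outflow replicates 2, 4 and 5 (-0.55, adjusted p = 0.34) and with the GAPDH covariate (-0.75, adjusted p = 0.142), all by limma. Csrp3 had -0.81 ± 0.27 (limma adjusted p = 0.0424), which missed the threshold without any of 15 of the 20 arrays (adjusted p 0.0514 to 0.0834) and with the rat as a fixed block (adjusted p = 0.0956). Ky probe set 1 missed it without any of 8 arrays (adjusted p 0.0501 to 0.0647). Ldb3 probe set 5, at -2.48 with all arrays, missed it without PE outflow replicates 2, 4 and 5 (-0.85, limma adjusted p = 0.128) and with the GAPDH covariate (-1.93, limma adjusted p = 0.0927). Ankrd1 probe set 2 had -0.83, and under quantile normalization it missed the threshold (-0.54, limma adjusted p = 0.0756). Relative to the cardiomyocyte markers 4 of the 19 were called lower, all of Ldb3, and 1 higher, the dim Fhl1 probe set 3, against 0.792% of all probe sets lower and 29.0% higher. Fhl1 had a difference of 0.24 ± 0.17 (limma adjusted p = 0.371), so its rise in the outflow tract was not shown to differ from its apex value.

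The regions were also compared within treatments. In PE rats 13 of the 19 probe sets were lower in the outflow tract than in the apex and 0 higher, with 28.7% of all probe sets called, 12.7% lower and 16% higher. For 8 of the 13 the groups did not overlap, which held for 8.64% of all probe sets in that direction. Relative to the cardiomyocyte markers 8 were lower and 3 higher, against 2.07% of all probe sets lower and 53.0% higher. Without PE outflow replicates 2, 4 and 5 Ldb3 probe set 5, at -2.32 with all arrays, had -0.70 and did not pass (limma adjusted p = 0.1), while Ankrd1 probe set 1, at -0.34 with all arrays, passed (-0.42, limma adjusted p = 0.0207). In vehicle rats 0 of the 19 passed limma, with 0.0% of all probe sets called, and 0 had an unadjusted p under 0.05, which 3.71% of all probe sets had. The values in vehicle rats ran between -0.43 and 0.29 on the log2 scale.

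Within rats, Ldb3 probe set 1 was lower in the outflow tract in 5 of 5 PE rats, by 1.09 to 2.51 on the log2 scale, and differed by -0.03 to 0.25 in vehicle rats. Fhl2, Xirp1, Ky and Rcan1 were likewise lower in the outflow tract of all 5 PE rats. Csrp3 was lower in 4 of 5, with 0.20 in the rat of replicate 2. Rcan1 had -0.98 ± 0.23 (limma adjusted p = 0.00292), with 5 rats between -1.44 and -0.35, and without PE outflow replicates 2, 4 and 5 it had -0.47 and did not pass (limma adjusted p = 0.271). Fhl1 was higher in the outflow tract of 5 of 5 PE rats, by 0.12 to 0.33, but the value of 0.25 ± 0.12 did not pass (limma adjusted p = 0.141). It passed under quantile normalization (0.54, limma adjusted p = 0.00387), with array weights (0.32, limma adjusted p = 0.0374) and relative to the cardiomyocyte markers (0.93, limma adjusted p = 0.00542).

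**Figure D5:**
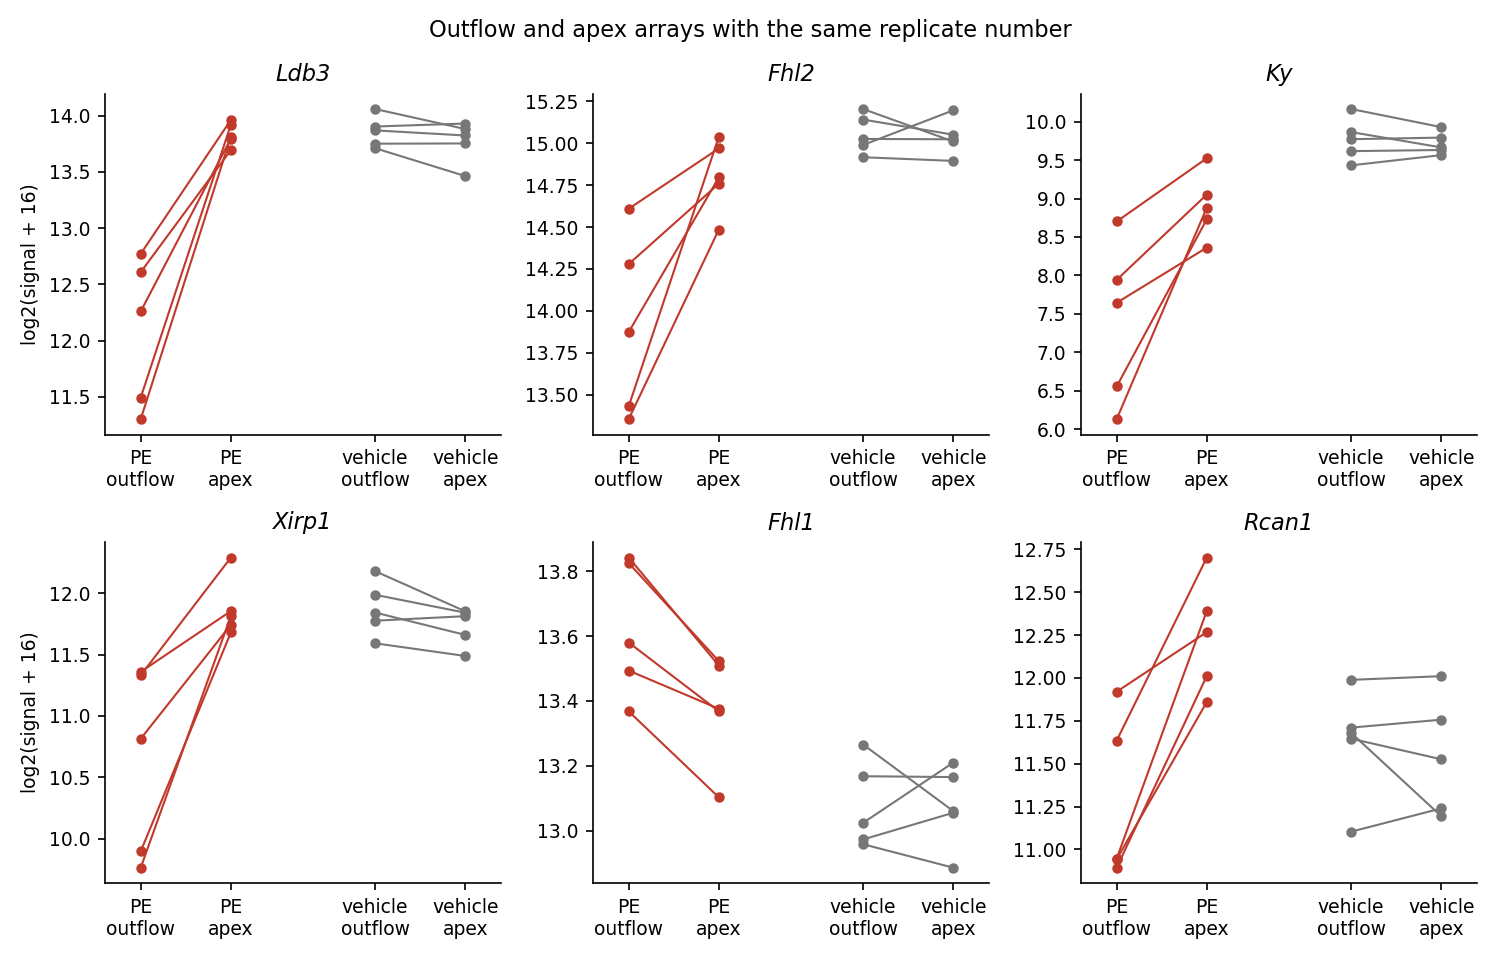
Log2 of the signal plus 16 in outflow tract and apex, with lines joining arrays of the same treatment and replicate number, for the brightest probe sets of 6 genes; red lines are PE rats and grey lines are vehicle rats. In PE rats all 5 lines rise toward the apex for Ldb3, Fhl2, Ky, Xirp1 and Rcan1 and fall for Fhl1, while the vehicle lines stay within 0.33 for Xirp1 and within 0.25 for Ldb3.

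Among the members, levels moved together across arrays to different degrees. After subtracting group means, the log2 signals of the brightest probe sets correlated over the 20 arrays at 0.834 for Fhl2 with Ky, 0.826 for Ankrd1 with Csrp3 and 0.778 for Xirp1 with Ldb3. Fhl1 ran between -0.576 with Ky and 0.379 with Rcan1, with -0.05 to -0.196 for Ldb3, Xirp1, Ankrd1 and Csrp3, -0.419 for Fhl2 and 0.118 for Ankrd2. Rcan1 was near 0 with Ankrd1 (0.0095) and Ky (0.0377) but at 0.566 with Ldb3. The arrays share scaling and RNA quality, so these values describe the arrays.

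Over all 20 arrays and 8121 genes with a mean log2 signal above 8, the genes most like Ky, the member with the largest fall, were Dusp23 (Pearson r = 0.983), Ndufb10 (0.981) and Jph2 (0.98). Those most like Fhl1, the member that rose, were Col4a1 (0.951), Aldh1a2 (0.942) and App (0.939). Jph2 encodes junctophilin 2, which holds the junctions of T-tubules and sarcoplasmic reticulum, and Ndufb10 a subunit of complex I. Col4a1 encodes a chain of basement membrane collagen. These correlations include the group differences and carry no test.

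Other Z-disc, costamere and titin-linked genes give the wider setting. Of 44 listed genes 38 were measured, and in the outflow tract 24 fell, 4 rose and 10 did not pass, with a median log2 fold change of -0.69 against 0.05 over all probe sets. Of all probe sets 14.9% were called lower and 19.6% higher. Des, the intermediate filament protein desmin that links Z-discs, fell 2.46-fold (log2 -1.30 ± 0.14, limma adjusted p = 1.01e-06), and Itga7, the laminin-binding integrin subunit of muscle, fell 2.54-fold (log2 -1.35 ± 0.18, limma adjusted p = 9.88e-06). Csrp2, a LIM protein of smooth muscle and stellate cells related to Csrp3, rose 9.02-fold (log2 3.17 ± 0.14, limma adjusted p = 1.59e-10), and Parva, an actin-binding partner of integrin-linked kinase, rose 2.71-fold (log2 1.44 ± 0.14, limma adjusted p = 4.4e-07). Relative to the cardiomyocyte markers, of which Ttn is on both lists, 9 were lower and 13 higher. In that setting 2.12% of all probe sets were called lower and 69.0% higher. The list had a median of 0.20 there, against 0.94 over all probe sets. In the apex 0 of the 38 passed limma, against 0.0129% of all probe sets, and the median was -0.05.

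The calcineurin and NFAT genes, the pathway of Rcan1, had 17 of 18 members measured. In the outflow tract 4 rose, 4 fell and 9 did not pass, with a median of 0.03 against 0.05 over all probe sets. Of all probe sets 19.6% were called higher and 14.9% lower. Nfatc1 rose 1.55-fold (log2 0.63 ± 0.15, limma adjusted p = 0.00221) and Cabin1, a calcineurin-binding inhibitor, 1.40-fold (log2 0.48 ± 0.11, limma adjusted p = 0.00148). Rcan2, a relative of Rcan1, fell 2.40-fold (log2 -1.27 ± 0.18, limma adjusted p = 1.84e-05), and the transcription factor gene Mef2d fell 1.81-fold (log2 -0.85 ± 0.13, limma adjusted p = 3.93e-05), a sign that turns to 0.04 relative to the cardiomyocyte markers. Without PE outflow replicates 2, 4 and 5, 0 rose and 5 fell, against 12.7% and 10.8% of all probe sets. In the apex 0 of the 17 passed limma, against 0.0129% of all probe sets.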

How the data were processed

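RNA of 20 right ventricle samples was hybridised to Affymetrix rat expression arrays, from 5 microgram of total RNA each, per the labels' protocols. Each probe set has 1 intensity per array in the deposited table, on a linear scale and already scaled by the authors: leaving out 2% of values at either end, the mean of each array was 500.2. The software is not given in the sources used here. Of 31099 probe sets, 57 control probe sets were left out of the tests.

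Signals were transformed to log2 after adding 16, and limma 3.58.1 (lmFit and eBayes, run in R 4.3.3) modelled the 4 group means over the 20 arrays together. Two-sided p-values of 5 comparisons were adjusted by the Benjamini-Hochberg method over 31042 probe sets, and a change was called under 0.05. SE are those of the model, SD are over 5 arrays, and precision is limited by how many arrays there were. The scripts were tested on simulated data.

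All probe sets of the genes are reported. Of each related list up to 4 genes with the smallest p are named, 2 higher and 2 lower, and the 3 most correlated genes are named for the members with the largest rise and fall. The members and lists were chosen with earlier results of these data known.

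Deviations from group means over 12310 probe sets were compared between same-numbered outflow and apex arrays. They correlated at 0.181 to 0.283 after PE and at 0.181 to 0.276 after vehicle. Within a treatment each same-numbered array of the other region was the best match, in both directions. A number was therefore taken to mean a rat within either treatment, while PE and vehicle arrays of a number were not paired.

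Alternatives were quantile normalization, centring on the median, dropping the dimmest 40% of probe sets, 1 or 64 as the added value, a fit restricted to the groups in question, array weights, robust variances with a trend on intensity, the rat as a random or fixed block, the GAPDH ratio as a covariate, leaving out PE outflow replicates 2, 4 and 5, leaving out each array, and levels relative to the cardiomyocyte markers.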

Additional observations from a re-analysis of the deposited data

Results flagged for a closer look

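In 6 of 76 groups of 5 arrays 1 value stood far from the other 4, where chance alone would give about 3.8, at 1 in 20. Ankrd1 probe set 1 had 48337 on PE outflow replicate 2, against 20145 to 25760 on the other PE outflow arrays. Ankrd2 had 73.9 on the same array, against 8.38 to 15.3, and 58.2 on PE apex replicate 3, against 5.69 to 10.8. Xirp1 had 4990 on PE apex replicate 3, against 3264 to 3684. Of the Ldb3 probe sets, 1375982_at had 7519 on PE apex replicate 5, against 6442 to 6576, and 1397273_at had 225 on PE apex replicate 4, against 419 to 453.

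For 13 probe sets the PE effect differed between the outflow tract and the apex by limma's interaction test, each with a lower effect in the outflow tract. The log2 differences were -1.84, -1.15, -1.67, -1.88 and -2.48 for Ldb3 probe sets 1 to 5, -1.57 and -1.48 for Ky, -0.92 and -1.56 for Fhl2 and -0.83 for Ankrd1 probe set 2, which missed the threshold under quantile normalization (-0.54). They were -1.39 for Xirp1, -1.06 for Rcan1 and -0.81 for Csrp3. Of 32 other settings, the call was lost in 17 for Csrp3 and in 9 each for Rcan1 and Ky probe set 1. It was lost in 2 each for Ldb3 probe set 5 and Ankrd1 probe set 2. Relative to the cardiomyocyte markers 4 of the 13 were still called lower, all of Ldb3. The part that the lower cardiomyocyte markers of PE outflow have in these differences was not tested.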

How the results depend on the processing

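Of 39 called values of the members over 4 comparisons, 19 kept direction and call in all the settings run for them, 32 or 33 by comparison, 20 of which leave out 1 array. Called values turned sign in 2 cases, both in the outflow tract relative to the cardiomyocyte markers: Ankrd1 probe set 2 at 0.073 and Csrp3 at 0.0076. In that setting the outflow tract had 4 members called higher, the difference of the PE effects had 1 higher and 4 lower, and outflow against apex in PE rats had 3 higher and 8 lower; over all probe sets 22079 were called for PE outflow (21421 higher and 658 lower), 9255 for the difference and 17109 between regions of PE rats, where the scaled signals gave 10720, 5567 and 8924. Without PE outflow replicates 2, 4 and 5 they were 3646 for the difference and 5320 between regions of PE rats. Members called higher in the outflow tract were 2 with the GAPDH covariate and 2 without those 3 arrays, where 5311 and 3947 of all 31042 probe sets were called higher. Between regions of PE rats 1 of the 19 was called higher with quantile normalization, array weights or the covariate. In these settings 4360, 5275 and 4394 of all 31042 probe sets were called higher.

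The 4 probe sets called in the apex became 1 with quantile normalization, 15 without the dimmest 40%, 17 adding 64, 23 with the intensity trend, 31 with array weights, 7 with the covariate, 22 without the 3 PE outflow arrays, and 1 to 30 leaving out single arrays. In vehicle rats 1 probe set was called between regions when only the compared groups were fitted, and 0 to 1 leaving out single arrays.

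Values that were not called also changed sign. Relative to the cardiomyocyte markers Ankrd1 probe set 1 had 0.46 in the outflow tract, 0.12 in the apex, 0.34 for the difference and 0.35 between regions of PE rats. Rcan1 had 0.53 in the outflow tract in that setting and 0.15 without the 3 arrays. In the apex it gave 0.13 for Csrp3 and 0.00098, 0.12, 0.18 and 0.047 for Ldb3 probe sets 2, 3, 4 and 6, and in the outflow tract 0.11 for Ldb3 probe set 6. Under quantile normalization Ankrd1 probe set 1 had 0.091, Csrp3 0.10 and Ldb3 probe set 4 0.023 in the apex, and Fhl1 probe set 2 had -0.0070 and Ankrd2 -0.048 in the outflow tract. Centring on the median gave -0.015 for Ankrd1 probe set 2 in the apex, and -0.082 for Fhl1 probe set 2 and -0.10 for Ankrd2 in the outflow tract; it moves the outflow median over all probe sets to -0.08. Ankrd2 had -0.29 with array weights, -0.67 with the covariate and -0.34 without the 3 arrays.

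Leaving out single arrays gave ranges that cross 0 for Ankrd2 (-0.31 to 0.26) and Fhl1 probe set 2 (-0.14 to 0.51) in the outflow tract. In the apex they were -0.026 to 0.065 for Ankrd1 probe set 2, -0.23 to 0.21 for Ankrd2, -0.13 to 0.0016 for Csrp3, -0.11 to 0.34 for Fhl1 probe set 3, -0.0095 to 0.11 for Ldb3 probe set 1 and -0.091 to 0.075 for Ldb3 probe set 4.

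With the rat as a random replicate block (consensus correlation 0.0651) Ldb3 probe set 6 passed in the outflow tract (log2 -0.78, limma adjusted p = 0.049), and with a fixed block the Csrp3 difference between regions did not (log2 -0.81, limma adjusted p = 0.0956); the blocks changed no other call of a member. The causes of these changes were not tested. Dim probe sets (Ankrd2, Fhl1 probe set 3 and Ldb3 probe set 6) limit what can be said of them.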

Other observations

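Relatives of the members took different directions in the outflow tract. In the CSRP family of LIM proteins, Csrp1 and Csrp2 were 3.03-fold and 9.02-fold higher in PE outflow than in vehicle outflow (log2 1.60 ± 0.19 and 3.17 ± 0.14, limma adjusted p = 2.56e-06 and 1.59e-10), whereas Csrp3 was lower (log2 -0.88 ± 0.19, or 0.01 relative to the cardiomyocyte markers). Csrp1 averaged 6138 ± 1522 in PE outflow and 1961 ± 194 in vehicle outflow, and Csrp2 averaged 3366 ± 461 in PE outflow and 356 ± 15.2 in vehicle outflow (SD, n = 5 each). In the apex Csrp2 had a log2 fold change of 0.69 ± 0.14 that did not pass (limma adjusted p = 0.123). In the FHL family, Fhl3 was lower in PE outflow (log2 -0.49 ± 0.11, limma adjusted p = 0.0016, or 0.41 relative to the cardiomyocyte markers), as was Fhl2, while Fhl1 was higher. Among the calsarcins, which tether calcineurin to the Z-disc, Myoz1 was 2.29-fold higher (log2 1.19 ± 0.23, limma adjusted p = 0.00046) and Myoz2 2.10-fold lower (log2 -1.07 ± 0.20, limma adjusted p = 0.00027, or -0.18 relative to the cardiomyocyte markers). Csrp1, Fhl3, Myoz1 and Myoz2 were chosen for mention after their values had been seen.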
